A study of Mus musculus with 8 samples.

Results

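The VEGF and angiopoietin system was examined through 10 genes, which were the rows of a 20681-row expression table whose gene name was Vegfa, Vegfb, Vegfc, Pgf, Flt1, Kdr, Flt4, Angpt1, Angpt2 or Tek. All 10 names were found, each in 1 row with values in all 8 libraries, and all 10 passed the filter on low values (4 or more libraries with a normalised read count of 10 or above). The libraries were poly-A RNA sequencing libraries of whole knee joints of mice, with 4 samples labelled as controls and 4 as knockouts of Loxl2, an enzyme that cross-links collagen and elastin. Both groups were described as Acan-Cre;Loxl2 fl/fl mice, so the controls carried the floxed alleles and Cre too, and the controls were described as vehicle-treated and named wt. What the knockout group received in place of vehicle, the sex and the age of the mice were not given in the sources used here. The Acan gene, which drives the Cre, is expressed chiefly in cartilage cells, whereas the joint samples also hold muscle, bone, vessels and synovium. All 8 library names carried DMM, an abbreviation that the labels do not spell out and that usually stands for surgical destabilisation of the medial meniscus. The labels do not say whether the samples of a group came from separate animals, so every p-value measures only the spread between these samples, which may be technical.

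VEGF ligands are secreted growth factors for blood and lymph vessels. Vegfa acts mainly through the receptor Kdr (VEGFR2) on blood vessel endothelium, while Flt1 (VEGFR1) binds Vegfa, Vegfb and Pgf and in its soluble form acts as a trap for them. Vegfc acts mainly through Flt4 (VEGFR3) on lymphatic endothelium. Angpt1 activates the endothelial receptor Tek (Tie2) and keeps vessels quiescent, and Angpt2 can oppose or mimic it depending on the setting. In the joint, vessels supply synovium, bone and muscle, healthy articular cartilage has none, and hypertrophic chondrocytes are a known source of Vegfa during bone growth.

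Values are the authors' normalised read counts, that is, the reads assigned to a gene divided by a size factor for the library. The whole reads behind them came to 13991000 to 17411617 per library. Loxl2 itself went against the labels in whole joint RNA, which also holds tissues outside cartilage and so does not test its loss in cartilage cells. Its 4 control libraries, listed by replicate number here and below, stood at 282, 349, 1135 and 311 normalised read counts, and those labelled knockout at 893, 1468, 960 and 1518, a log2 difference of 1.44 (SE 0.40, limma adjusted p = 0.0294) toward the knockout label, a call kept in 3 of the 8 limma fits that left out 1 library (adjusted p 0.00188 to 0.0849). Group names below are therefore those of the labels, and directions hold for the libraries labelled knockout against those labelled control. The make-up of the joints also differed. The 16 skeletal muscle genes took 14.5 to 14.9% of all values in the controls and 8.54 to 11.4% in the libraries labelled knockout, and 9 of 10 fibroblast genes and 7 of 9 macrophage genes were called higher. All 9 genes of hypertrophic cartilage and bone had higher estimates, with a median log2 difference of 1.65 and 5 called, or 3 without knockout replicate 3. The tissue label was checked against 10 chondrocyte genes of the table, whose summed level was 4320 to 13206 normalised read counts in the controls and 10865 to 15010 in the libraries labelled knockout. The most abundant of the 10, Comp, had means of 4358 in the controls and 7942 in the libraries labelled knockout, so the sum leans on 1 gene. Of the 10 chondrocyte genes, 9 had higher estimates and 1 was called. That call was the matrix linker gene Hapln1 (log2 difference 1.28, limma adjusted p = 0.0165), named after its value was seen. Across all genes, 3461 of 14949 tested were called at an adjusted p under 0.05 by limma, which is 23.2%, with 11.6% called higher and 11.6% called lower.

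The promoter windows of 4 genes are shown because these 4, Vegfa, Flt1, Kdr and Tek, had their highest level of all 8 libraries in the same library (below). Each window is RefSeq sequence of build GRCm38.p6 from 250 bases before to 50 bases after an annotated start, 5′ to 3′ on the gene's strand. Capitals mark 2 kinds of core motif on either strand: the hypoxia-inducible factor cores ACGTG and GCGTG, and the ETS factor cores CCGGAA and CAGGAA.
Vegfa, chr17:46032328-46032627, minus strand: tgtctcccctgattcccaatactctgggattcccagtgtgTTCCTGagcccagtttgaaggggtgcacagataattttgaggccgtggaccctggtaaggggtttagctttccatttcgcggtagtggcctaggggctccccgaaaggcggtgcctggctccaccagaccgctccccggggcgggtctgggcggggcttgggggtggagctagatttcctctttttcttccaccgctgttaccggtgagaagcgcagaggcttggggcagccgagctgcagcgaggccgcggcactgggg
Flt1, chr5:147725962-147726261, minus strand: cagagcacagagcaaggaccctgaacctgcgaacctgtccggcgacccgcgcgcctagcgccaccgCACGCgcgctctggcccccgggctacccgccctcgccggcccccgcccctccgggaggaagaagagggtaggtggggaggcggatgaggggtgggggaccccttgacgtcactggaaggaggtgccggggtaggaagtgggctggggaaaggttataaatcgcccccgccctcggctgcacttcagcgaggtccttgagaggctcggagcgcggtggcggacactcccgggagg
Kdr, chr5:75978406-75978705, minus strand: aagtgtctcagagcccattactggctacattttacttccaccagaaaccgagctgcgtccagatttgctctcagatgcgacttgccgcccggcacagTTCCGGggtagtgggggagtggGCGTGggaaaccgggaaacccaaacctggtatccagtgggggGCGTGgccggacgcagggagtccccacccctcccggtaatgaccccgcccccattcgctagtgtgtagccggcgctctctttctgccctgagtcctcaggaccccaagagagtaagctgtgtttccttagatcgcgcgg
Tek, chr4:94739039-94739338, plus strand: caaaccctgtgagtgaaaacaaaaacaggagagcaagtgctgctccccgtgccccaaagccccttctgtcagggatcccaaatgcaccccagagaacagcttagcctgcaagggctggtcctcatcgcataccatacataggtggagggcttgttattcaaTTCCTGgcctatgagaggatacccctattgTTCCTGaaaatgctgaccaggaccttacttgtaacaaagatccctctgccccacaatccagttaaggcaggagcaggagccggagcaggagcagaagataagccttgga
The Vegfa window shown held 0 hypoxia cores and 1 ETS core, the Flt1 window 1 and 0, the Kdr window 2 and 1, and the Tek window 0 and 2. A second Vegfa window, at another annotated start (chr17:46025114-46025413), held 2 hypoxia cores and 0 ETS cores. RefSeq gave 10 windows for 8 of the 10 genes, with none for Angpt1 and Angpt2. A hypoxia core stood in 5 of the 10 windows and an ETS core in 4, against 43.8% and 41.4% of all 32851 windows of this length. A match describes letters only.

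None of the 10 ligands and receptors passed the test between the groups, and no member had groups that did not overlap. The point estimates of 7 of the 10 were lower in the libraries labelled knockout, with a median log2 difference of -0.09 over the 10 genes, against 0.00 over all genes tested. The count of 0 of 10 compares with 23.2% called among all genes, and the count of members without overlap, also 0 of 10, with 25.1%. The largest difference was that of Vegfb, the 1 member of 10 with an unadjusted limma p under 0.05. Among all genes, 5741 of 14949 tested had such a p. On the recovered reads edgeR and DESeq2 also called 0 of the 10, where they called 22.2% and 27.6% of all genes. In whole joint RNA, fewer cells of a type and less RNA per cell cannot be told apart.

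**Figure D1:**
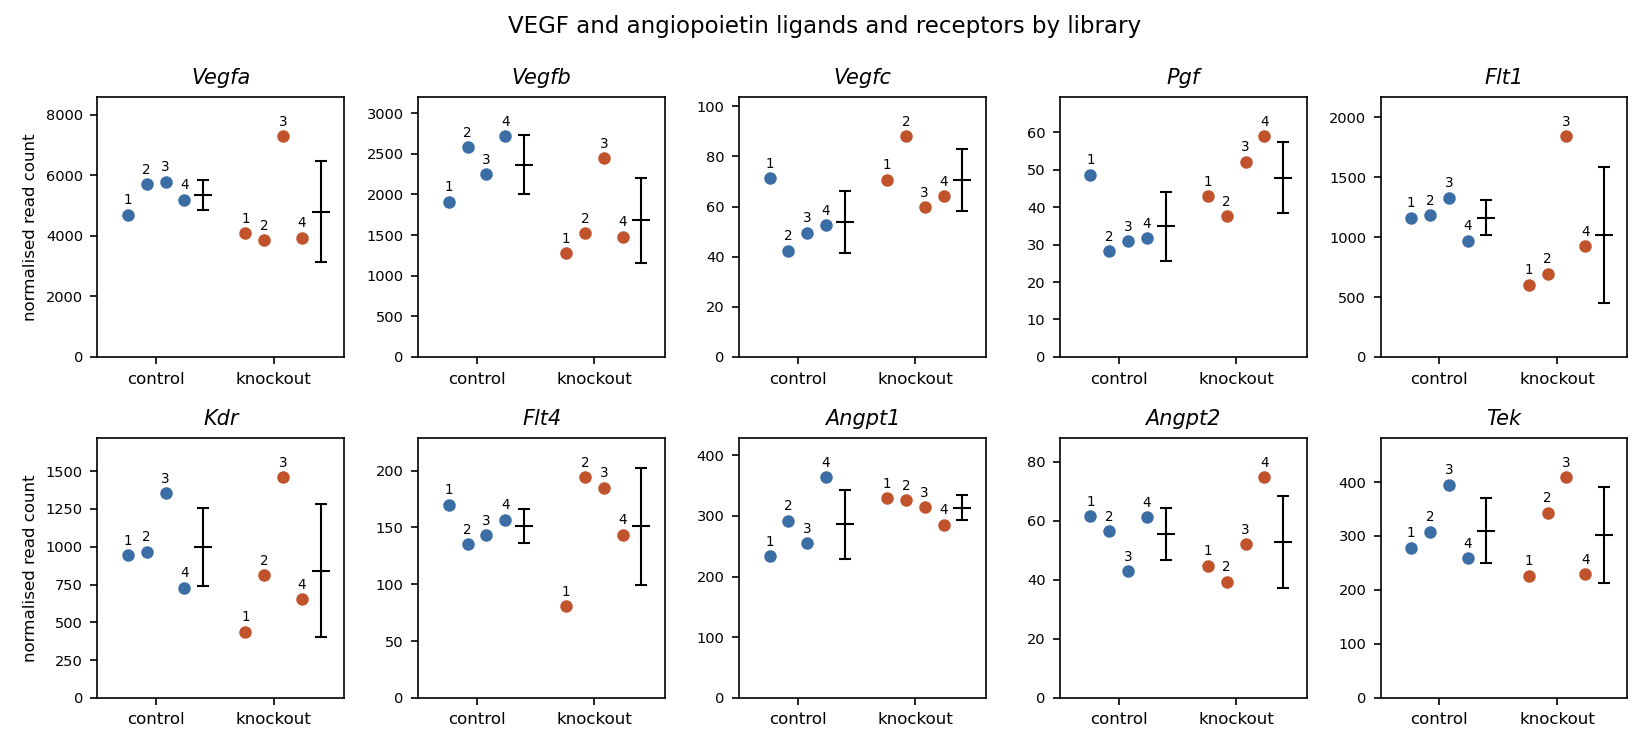
Normalised read counts of the 10 VEGF and angiopoietin genes (y axis from 0, 1 scale per gene) in the 4 control libraries and the 4 libraries labelled knockout, each point a library marked with its replicate number, with the mean and SD beside each group. Knockout replicate 3 is the top point for Vegfa (7296), Flt1 (1842), Kdr (1459) and Tek (409), and for every gene the groups overlap.

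Vegfa, the main inducer of vessel growth, was the most abundant member by normalised read count. The controls stood at 4708, 5705, 5788 and 5203 normalised read counts and the libraries labelled knockout at 4097, 3868, 7296 and 3939. Replicate 3 of the latter was above all controls, and the other 3 were below all controls. The means were 5351 ± 501 and 4800 ± 1667 (SD, n = 4 each, as for all means below), a log2 difference of -0.21 (95% interval -0.64 to 0.22, limma adjusted p = 0.459). Its gene lies on chromosome 17, 46016993 to 46032369 (mm10, minus strand).

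Vegfb, a ligand of Flt1 that is abundant in muscle and heart, had the lowest estimate of the 10. Its normalised read counts were 1911, 2582, 2251 and 2717 in the controls and 1274, 1520, 2446 and 1481 in the libraries labelled knockout. Of the 4 libraries labelled knockout, 3 lay below every control, and replicate 3 lay within the control range. The means were 2365 ± 360 and 1680 ± 522, with a log2 difference of -0.53 (95% interval -0.95 to -0.10, SE 0.19), and the limma adjusted p of 0.0732 missed the threshold. All 16 skeletal muscle genes also had lower estimates, 8 of them called (11.6% of all genes were called lower), with a median log2 difference of -0.74. The part of muscle in the Vegfb value was not tested.

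Vegfc, the lymphatic ligand, was low, with 71.4, 42.4, 49.5 and 52.6 normalised read counts in the controls and 70.8, 88.1, 59.8 and 64.3 in the libraries labelled knockout. Control replicate 1 was higher than 3 of the 4 libraries labelled knockout, so the groups overlapped. The log2 difference was 0.39 (95% interval -0.08 to 0.87, limma adjusted p = 0.205). Pgf, a ligand of Flt1 first found in placenta, was lower still. It had 48.7, 28.3, 30.8 and 31.8 in the controls and 42.9, 37.6, 52.2 and 59.0 in the libraries labelled knockout, again with control replicate 1 apart from the other controls. Its log2 difference was 0.46 (95% interval -0.09 to 1.01, limma adjusted p = 0.203).

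Divided by the union of annotated exon lengths, which only approximates the transcript made in the joint, Vegfa and Vegfb stood far above the other ligands. The control mean was 1249 normalised read counts per kb for Vegfa and 1474 for Vegfb, against 22.0 for Vegfc and 12.0 for Pgf. Of the summed level per kb of the 5 VEGF ligands, which include Vegfd, Vegfb made up 49.6 to 56.5% in the controls and 43.1 to 48.8% in the libraries labelled knockout. Those 2 ranges did not overlap, replicate 3 included. The share of Vegfa was 40.5 to 47.8% and 46.5 to 51.9%, ranges that did overlap. These shares were looked at after the levels were known and carry no test.

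Flt1, the decoy-like VEGF receptor, had a coefficient of variation of 55.8% among the libraries labelled knockout and 12.7% among the controls, against 34.7% and 9.36% for Vegfa. The controls had 1163, 1185, 1328 and 969 normalised read counts, and the libraries labelled knockout had 602, 694, 1842 and 925. Replicate 3 was above all controls and the other 3 were below all controls, the same arrangement as for Vegfa. The means were 1161 ± 147 and 1016 ± 567, a log2 difference of -0.33 (95% interval -0.99 to 0.33, limma adjusted p = 0.445).

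Kdr, the main signalling receptor for Vegfa, spread in a like manner. Its controls were 942, 968, 1353 and 728, and its libraries labelled knockout 439, 812, 1459 and 654 normalised read counts. The range of the controls lay inside that of the other group. The log2 difference was -0.35 (95% interval -1.07 to 0.37, limma adjusted p = 0.457). Flt4, the Vegfc receptor, had equal means of 151 ± 15.2 and 151 ± 51.6, from 135 to 170 in the controls and from 80.8 to 194 in the libraries labelled knockout. Its log2 difference was -0.08 (95% interval -0.64 to 0.49, limma adjusted p = 0.855). The log2 ratio of Flt1 to Kdr was 0.24 ± 0.19 in the controls and 0.27 ± 0.34 in the libraries labelled knockout, a difference of 0.02 (exact two-sided permutation test over 70 assignments, p = 0.886, adjusted over 2 ratios 0.886).

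Angpt1, the agonist of Tek, had the smallest coefficient of variation of the 10 members among the libraries labelled knockout, 6.37%, against 19.9% among the controls. It had 234, 292, 255 and 364 normalised read counts in the controls and 329, 326, 314 and 285 in the libraries labelled knockout. The 4 values of the second group lay inside the range of the first, with means of 286 ± 57.0 and 314 ± 19.98. The log2 difference was 0.15 (95% interval -0.16 to 0.47, limma adjusted p = 0.465). Angpt2, the context-dependent ligand, had 61.6, 56.5, 43.0 and 61.3 in the controls and 44.9, 39.3, 52.2 and 74.8 in the libraries labelled knockout. The controls lay inside the range of the other group, and the log2 difference was -0.10 (95% interval -0.64 to 0.43, limma adjusted p = 0.787).

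The log2 ratio of Angpt2 to Angpt1 was -2.34 ± 0.30 in the controls and -2.59 ± 0.48 in the libraries labelled knockout. The difference of -0.25 did not pass an exact two-sided permutation test (p = 0.343, adjusted over 2 ratios 0.686, smallest p possible 0.0286). Angpt1 overlaps Gm17473 and Angpt2 overlaps Mcph1 on the opposite strand in GENCODE, and whether strand was used in counting is not given in the sources used here, so their values may include reads of those genes. Tek, the receptor of both, had 278, 308, 395 and 259 normalised read counts in the controls and 226, 343, 409 and 229 in the libraries labelled knockout. Its groups overlapped, with a log2 difference of -0.07 (95% interval -0.54 to 0.41, limma adjusted p = 0.846).

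Ordered by control mean per kb of exon, the 10 genes ran from Vegfb (1474 normalised read counts per kb) and Vegfa (1249) through Kdr (111), Flt1 (86.0), Tek (65.8) and Angpt1 (55.0) to Vegfc (22.0), Flt4 (18.4), Angpt2 (15.1) and Pgf (12.0). The control ranges of neighbours in that order overlapped except between Vegfa (lowest 1099) and Kdr (highest 149.9) and between Angpt1 (lowest 44.9) and Vegfc (highest 29.1). The means of the libraries labelled knockout kept the receptor order, with Kdr at 93.2, Flt1 at 75.2, Tek at 64.0 and Flt4 at 18.3 per kb. Vegfa (1120) and Vegfb (1047) changed places, as did Pgf (16.5) and Angpt2 (14.3), pairs whose ranges overlapped within each group.

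Knockout replicate 3 held the highest level in several genes. Relative to the mean of the other 3 libraries labelled knockout it was 2.49 times as high for Flt1, 2.30 for Kdr, 1.84 for Vegfa, 1.72 for Vegfb and 1.54 for Tek, but 1.003 for Angpt1 and 0.985 for Angpt2. It was the highest of all 8 libraries for Vegfa, Flt1, Kdr and Tek, 4 of the 10 members, against 10.1% of all genes tested. Replicate 1 of the same group was the lowest of all 8 for Vegfb, Flt1, Kdr, Flt4 and Tek. Within its group replicate 1 was the lowest for 5 of the 10 members, against 23.3% of all genes tested. The coefficient of variation was larger in the libraries labelled knockout than in the controls for 7 of the 10 members, a share not taken over all genes.

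Without knockout replicate 3, Vegfa, Vegfb and Flt1 were called lower by limma. The log2 difference was -0.43 (SE 0.09, adjusted p = 0.0144) for Vegfa, -0.72 (SE 0.13, adjusted p = 0.00802) for Vegfb and -0.66 (SE 0.16, adjusted p = 0.0185) for Flt1. These 3 were also the members whose groups then did not overlap, while Kdr, at -0.66, missed the threshold with an adjusted p of 0.0742. In that fit 25.7% of all genes were called, 13.4% lower, and 36.2% had groups that did not overlap, 19.0% lower (12.3% called higher, 17.2% higher without overlap). The 3 of 10 members called is thus close to the share of all genes called in either direction and above the share called lower, a difference that was not tested. edgeR called the same 3 members without that library, with 24.8% of all genes called. Of the 8 fits that each left out 1 library, the other 7 called 0 members, where they called 19.8, 12.6, 23.3 and 14.7% of all genes without control replicates 1 to 4 and 16.2, 16.0 and 11.7% without knockout replicates 1, 2 and 4. Other leave-outs moved the estimates toward 0: without knockout replicate 1 the log2 difference was -0.13 for Flt1, -0.08 for Kdr and -0.41 for Vegfb, and without knockout replicate 2 it was -0.12 for Vegfa. The calls also depended on scaling: when each library was scaled to the sum of its values outside the 50 most abundant genes and outside the neutrophil, erythroid and muscle lists, and replicate 3 was left out, 25.3% of all genes were called. Of these 3783 genes, 2801 were called higher and 982 lower, and the median log2 difference over all genes was 0.15. In that fit Vegfb kept its call as lower (-0.57, limma adjusted p = 0.013), and Vegfa (-0.27, 0.0548) and Flt1 (-0.51, 0.0518) missed it.

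**Figure D2:**
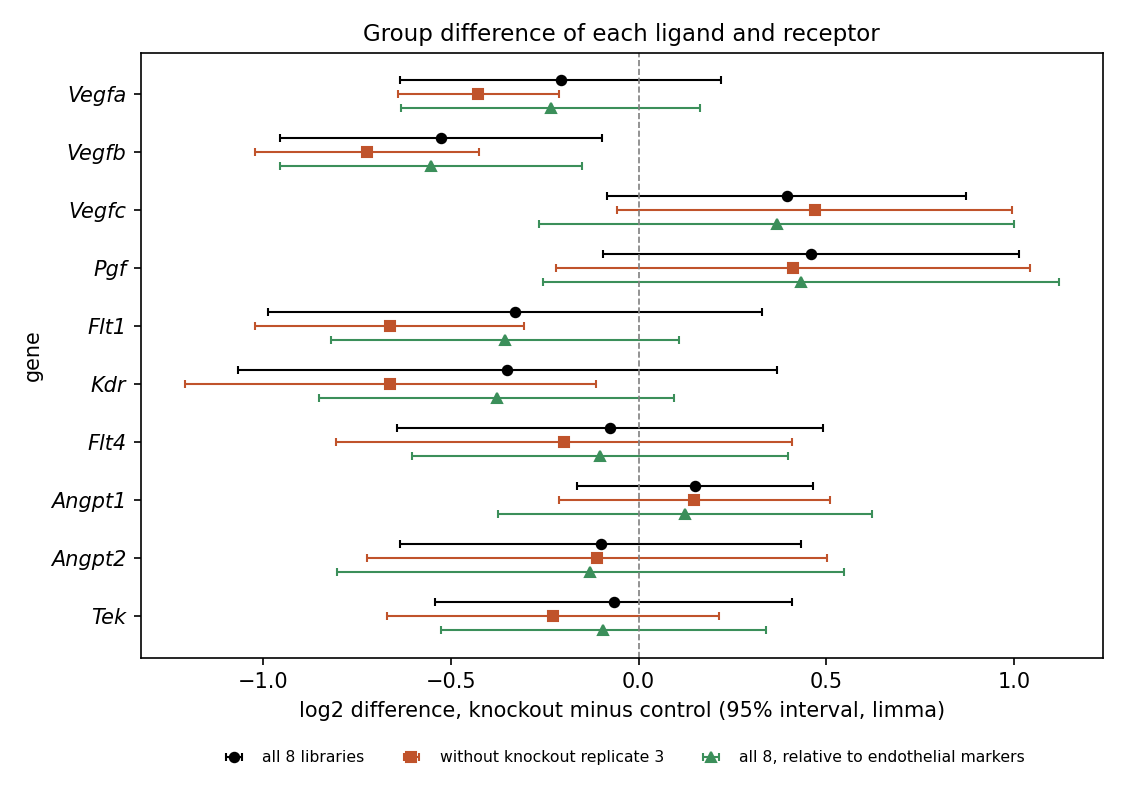
Log2 difference of each gene (x axis, knockout label minus control label, with the 95% interval from limma) over all 8 libraries, without knockout replicate 3, and over all 8 libraries relative to 20 endothelial markers. Without replicate 3 the estimates of Vegfa (-0.43), Vegfb (-0.72), Flt1 (-0.66) and Kdr (-0.66) lie farther below 0 than with all 8 libraries, whereas without replicate 1 (not drawn) Flt1 (-0.13) and Kdr (-0.08) lie nearer to 0.

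Replicate 3 also carried the most endothelial RNA. Its mean log2 level over the 20 endothelial markers was 8.97, against 8.23, 8.67 and 8.46 in the other libraries labelled knockout and 8.45 to 8.64 in the controls. For 15 of the 20 markers it was the highest library labelled knockout (75%, against 28.6% of all genes tested), and for 15 of 20 replicate 1 was the lowest (75%, against 23.3%). Replicate 3 was likewise the highest of its group for 8 of 8 erythroid genes and 6 of 10 mural cell genes, and for 0 of 10 fibroblast genes. Transcripts of the mitochondrial genome took 18.5% of its values, against 10.4 to 12.5% in the other libraries labelled knockout and 12.0 to 13.7% in the controls. The part of these differences in the member levels was not tested.

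The endothelial list itself was split in direction, with 12 of 20 markers higher and 8 lower and a median log2 difference of 0.06. It had 1 call (23.2% of all genes were called). That call was Plvap, a component of endothelial diaphragms, at 0.58 (limma adjusted p = 0.0356), named here after its value was seen and called in 3 of the 8 fits that left out 1 library (adjusted p 0.0237 to 0.0946). The junction genes Pecam1 and Cdh5 had log2 differences of 0.06 and -0.22, and the TGF-beta co-receptor Eng 0.12, with none called. Without knockout replicate 3 the list had 1 call higher and 2 lower, against 12.3% and 13.4% of all genes. Among the lower was Cdh5 at -0.48 (limma adjusted p = 0.0335), while without replicate 1 Cdh5 differed by -0.02. When each library's log2 levels were lowered by its mean over the 20 markers, 974 genes were called (6.52%) and 0 of the 10 members. On that scale the log2 difference was -0.55 for Vegfb (limma adjusted p = 0.0864), -0.36 for Flt1 (0.349) and -0.38 for Kdr (0.326). Without knockout replicate 3, 14.7% of genes were called on that scale, 1816 of 14949 higher and 382 lower. The median log2 difference over all genes was then 0.10. The calls included 2 members, both lower, Vegfb (limma adjusted p = 0.0349) and Flt1 (0.0454).

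Of the other vessel cell lists, the 10 mural cell genes had 2 called higher and 1 lower, against 11.6% of all genes in each direction. The most abundant, the pericyte regulator Rgs5, differed by 0.14 on the log2 scale (limma adjusted p = 0.522). The pericyte receptor Pdgfrb was higher by 0.88 (0.00767) and the channel subunit Abcc9 fell by 0.49 (0.00765), both called in all 8 fits that left out 1 library. The proteoglycan gene Cspg4, named after its value was seen, was higher by 0.74 (0.0277) and was called in 3 of those 8 fits (limma adjusted p 0.00443 to 0.0819). The other 7 mural cell genes were not called. In the libraries labelled knockout the fibroblast list was higher (median log2 difference 1.67) and the muscle list lower (-0.74). The part of these tissues in the mural cell values was not tested. Of 6 lymphatic endothelial genes 5 were higher and 0 were called, with a median log2 difference of 0.77. The 1 lower gene was Prox1 at -0.16 (limma adjusted p = 0.763), named after its value was seen. Lyve1, a hyaluronan receptor of lymphatic vessels and some macrophages, ranged from 84.8 to 411 normalised read counts in the controls and from 256 to 611 in the libraries labelled knockout. Its log2 difference was 1.04, that of the mucin-like Pdpn 1.06 and that of Reln 0.15 (limma adjusted p = 0.107, 0.0832 and 0.649). All 8 erythroid genes had lower estimates, with a median of -1.93, and 0 were called with all 8 libraries. The median was -2.58 and 7 of the 8 were called lower without knockout replicate 3, where 13.4% of all genes were called lower. Of the 8 neutrophil genes 0 were called in either fit, with a median of -0.63 over all 8 libraries.

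The genes whose profiles over the 8 libraries lay closest to each member were found among genes with a mean of at least 50 normalised read counts, by the root mean square difference of centred log2 levels. Vegfa lay closest to mt-Cytb (0.07) and mt-Nd4 (0.08), which the mitochondrial genome encodes, and Vegfb to Uqcrc1 (0.08), a subunit of respiratory complex III, and Chchd10 (0.10), a mitochondrial protein. For Flt1 the closest were Egln3 (0.12), an oxygen-sensing prolyl hydroxylase, and Cd300lg (0.16), an endothelial surface protein. For Kdr they were the endothelial matrix gene Mmrn2 (0.19) and the caveolar gene Cavin2 (0.19). Flt4 lay closest to Mcam (0.16) and Bcam (0.16), Tek to Rasgrf2 (0.12) and Gm12231 (0.14), Angpt1 to Vamp8 (0.09) and Fdxacb1 (0.10), Angpt2 to Cebpb (0.14) and Alkbh6 (0.14), Vegfc to Med11 (0.09) and Inafm2 (0.10), and Pgf to Gm9800 (0.08) and Ikzf1 (0.11). Each is a description over 8 libraries, with no test.

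**Figure D3:**
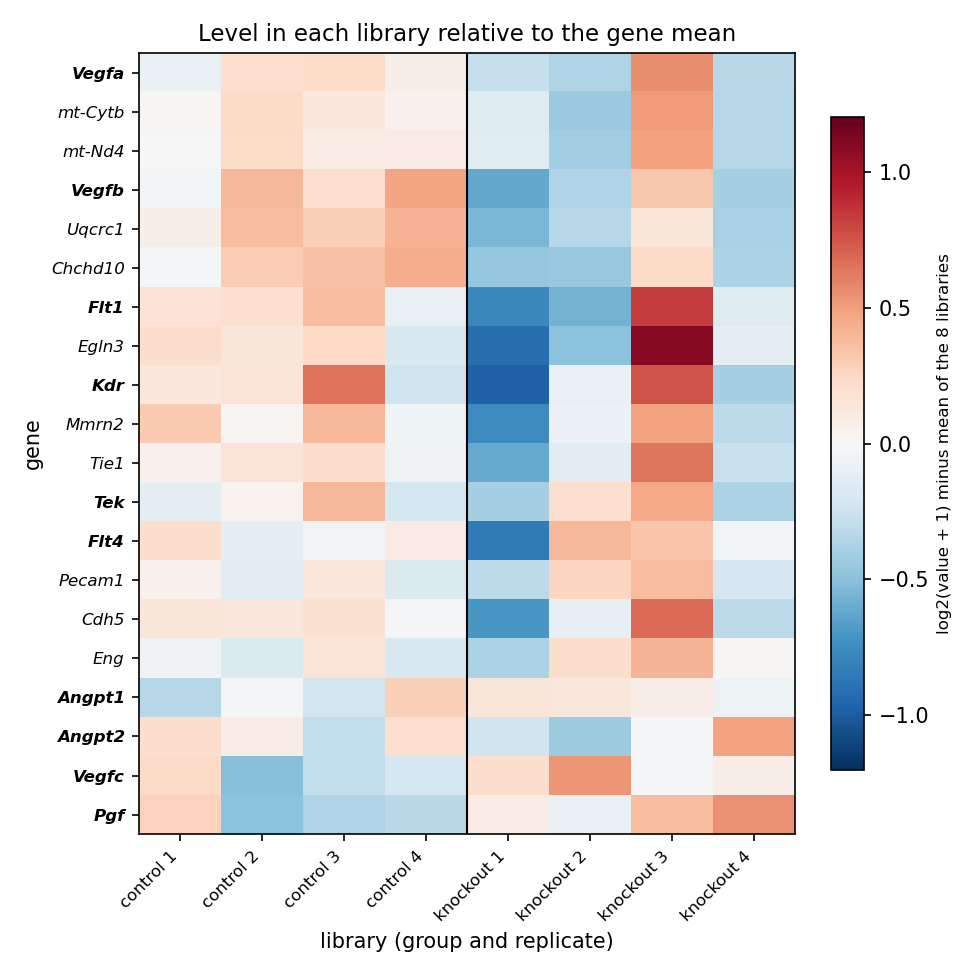
Heat map of the log2 level of each gene (rows, members in bold) in each of the 8 libraries (columns), as log2(value + 1) minus the mean of the 8 libraries, with red above and blue below that mean. Vegfa, Flt1, Kdr and Tek are at their highest in knockout replicate 3 (1842 normalised read counts for Flt1, 1459 for Kdr), and Angpt1 is near its mean there (314).

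Among 9 co-receptors, further ligands and regulators of the pathway, 1 was called, and it was higher (11.6% of all genes were called higher). Nrp2, a co-receptor of Flt4 and Kdr for VEGF ligands and of plexins for semaphorins, had 1167, 389, 561 and 421 normalised read counts in the controls and 1259, 1047, 918 and 1199 in the libraries labelled knockout. Control replicate 1 stood with the second group and the other 3 controls lay below it. The means were 634 ± 363 and 1106 ± 154, a log2 difference of 0.94 (95% interval 0.27 to 1.61, SE 0.30, limma adjusted p = 0.0475). That call was lost with edgeR on the recovered reads (adjusted p = 0.0949) and, with limma at the deposited scaling, in 7 of the 8 fits that left out 1 library (adjusted p 0.0512 to 0.124). Without control replicate 1 the log2 difference was 1.28 (limma adjusted p = 0.0075). The call was also kept with DESeq2 on the recovered reads (adjusted p = 0.0346) and with a replicate block in limma (0.0434). Over all 19 alternatives Nrp2 was called in 10 and not called in 9. Nrp2 overlaps Gm37121 on the same strand and Gm29083 on the opposite strand.

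Ccbe1, which assists the processing of Vegfc, had 29.2, 38.4, 51.4 and 63.5 normalised read counts in the controls and 61.8, 208, 62.0 and 129 in the libraries labelled knockout. Control replicate 4 overlapped the lowest 2 of the second group. The log2 difference of 1.19 missed the threshold (limma adjusted p = 0.0595) but passed it with edgeR (0.0454) and DESeq2 (0.0085), and with limma without knockout replicate 1 (0.048) or 3 (0.0365). Adamts3, the protease of the same step, had a log2 difference of 0.85 (limma adjusted p = 0.128), from 6.57 to 14.1 in the controls and 10.9 to 26.4 in the libraries labelled knockout. It was called in 2 of 19 alternatives, both without knockout replicate 3. These were edgeR (adjusted p = 0.0474) and limma scaled to the remaining total (adjusted p = 0.0403).

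Nrp1, the co-receptor of Kdr, differed by 0.09 on the log2 scale (limma adjusted p = 0.784), from 466 to 726 normalised read counts in the controls and 440 to 880 in the libraries labelled knockout. Tie1, the partner receptor of Tek, differed by -0.18 (0.572), without knockout replicate 3 by -0.43 (limma adjusted p = 0.0368) and without replicate 1 by -0.01. Ptprb, the endothelial phosphatase that acts on Tek, differed by -0.14 (0.501). Vegfd, the second lymphatic ligand, differed by 0.01 (0.960), with 88.7 to 138 and 98.6 to 116 normalised read counts. Svep1, an extracellular protein tied to lymphatic growth, differed by 0.86 (0.295), from 0.52 without knockout replicate 2 to 1.36 without knockout replicate 3 (limma adjusted p = 0.0597). It was called in 1 alternative, without replicate 3 and scaled to the remaining total (1.52, limma adjusted p = 0.0467). Angpt4 had 130, 18.2, 19.6 and 9.86 normalised read counts in the controls and 54.9, 43.6, 13.1 and 33.4 in the libraries labelled knockout, so that control replicate 1 held most of the control sum. Its mean was higher in the controls and its log2 difference was 0.28 in the other direction (limma adjusted p = 0.810).

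**Figure D4:**
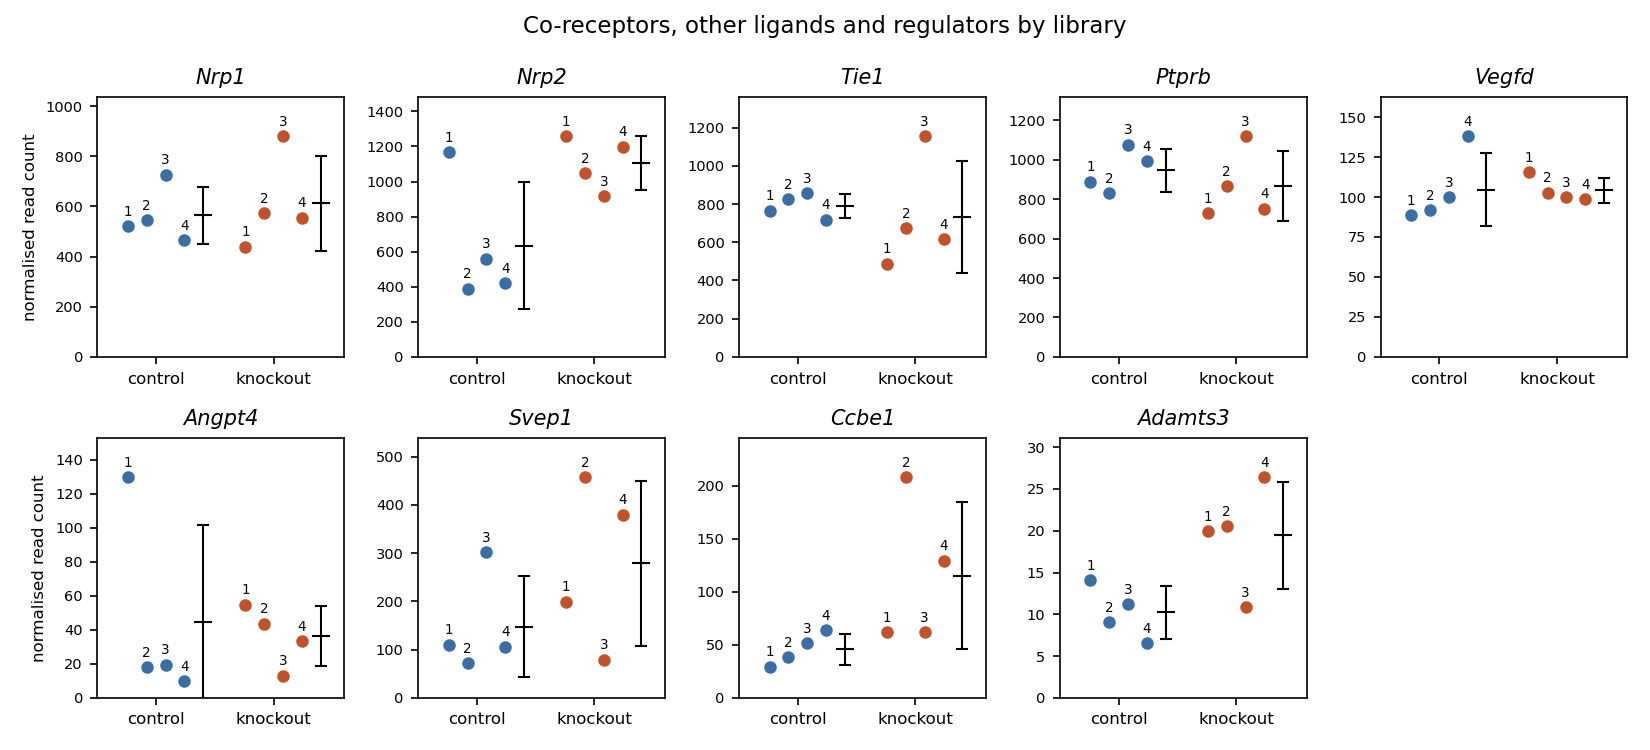
Normalised read counts of 9 co-receptors, further ligands and regulators (y axis from 0, 1 scale per gene) in the 4 control libraries and the 4 libraries labelled knockout, marked by replicate number, with mean and SD (the Angpt4 control bar runs past 0 and is clipped there). Nrp2 in control replicate 1 (1167) lies among the libraries labelled knockout (918 to 1259).

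Genes known to respond to VEGF in tip cells, the leading cells of a sprout, showed 1 call among 9 tested (23.2% of all genes were called). It was the guidance receptor Unc5b, higher by 0.68 on the log2 scale (limma adjusted p = 0.0492), named after its value was seen. That call was kept without control replicate 1 and lost in the other 7 fits that left out 1 library (adjusted p up to 0.119), so that without knockout replicate 3 the list had 0 calls. The median of the 9 was 0.30, with 6 higher and 3 lower. Rcan1, an inhibitor of calcineurin, differed by -0.18, the pericyte-recruiting ligand Pdgfb by 0.33 and Igfbp3 by 0.43, none of them called over all 8 libraries, and Pdgfb and Igfbp3 called without control replicate 1 (limma adjusted p = 0.0295 and 0.0328).

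Hypoxia factors and targets, a group to which Vegfa itself belongs by its known regulation, held calls in both directions. Of 16 genes, 2 were called higher and 4 lower, against 11.6% of all genes in each direction. The median log2 difference was -0.20. The oxygen-regulated transcription factor subunit Hif1a rose by 0.82 (limma adjusted p = 0.0204) and Ndrg1 by 0.39 (0.0305). The enzymes of glycolysis Ldha and Pgk1 fell by 0.54 (0.0307) and 0.43 (0.0309), the prolyl hydroxylase Egln1 fell by 0.43 (0.0134), and the mitophagy gene Bnip3 fell by 0.42 (0.0143). With 1 library left out, Egln1 and Bnip3 were called in 8 of 8 limma fits, Hif1a in 4 (adjusted p up to 0.0632), Ndrg1 in 3 (up to 0.0825), Pgk1 in 3 (up to 0.0863) and Ldha in 2 (up to 0.0899). Leaving out knockout replicate 3 gave 1 call higher, Hif1a, and 6 lower, which added Epas1 (-0.59) and Egln3 (-0.61) to the 4 above. In that fit 12.3% of all genes were called higher and 13.4% lower. Ldha in each library labelled knockout (28060 to 39623 normalised read counts) lay below each control (44110 to 56568). Muscle is rich in Ldha and Pgk1, and the muscle list's share of values was lower in the same libraries, as given above. Its part in these values was not tested. Hif1a, Ndrg1, Bnip3, Epas1 and Egln3 were named here after their values were seen.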

How the data were processed

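Poly-A RNA sequencing of 8 whole knee joint samples, 4 per label, was analysed. Per the submitters' processing notes the reads were aligned with HISAT2 to mm10 and counted with featureCounts, and per the series' design text they were normalised with DESeq2. Versions, annotation and strand setting are not given in the sources used here. The deposited values are a signal: per gene and library, the authors' read counts divided by a library size factor, not raw counts. Whole reads were recovered from the value steps: 100% of values were whole at a tolerance of 0.001 relative to the read number. High read numbers pass that tolerance whatever their fraction, so the check bears on low ones only. Size factors were 0.913 to 1.17. In 2 columns the step was near 1.

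A value of 1 was added before log2, and genes with at least 10 in at least 4 libraries (14949 of 20681) were fitted with limma 3.58.1 (trend, R 4.3.3), Benjamini-Hochberg adjusted over all genes tested and called under 0.05. Ratios used the exact permutation test. edgeR 4.0.16 and DESeq2 1.42.0 on recovered reads, other pseudocounts, scalings, no filter, a replicate block and each library left out were alternatives. The fit was tested on simulated data. Names were matched to GENCODE M21 for 20520 rows (99.2%). Genes to be named were all members, all tested co-receptors and regulators, the 3 most abundant genes of every other list and 2 nearest genes per member. The muscle, fibroblast, macrophage, chondrocyte, bone, erythroid and neutrophil lists are given mainly as counts and summed or median levels instead. Genes named outside this rule are marked. The members and lists were chosen with earlier results of these data known. A count of 0 columns went unmapped, and within-group libraries differed beyond counting noise (12 pairs, chi-square per degree of freedom 25.0 to 66.9).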

Additional observations from a re-analysis of the deposited data

Results flagged for a closer look

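In 38 groups of 4 libraries, the gap between the highest or lowest library and its nearest neighbour was divided by the whole range of the group, and 3 groups passed Dixon's 95% limit for 4 samples. Chance passes about 1 in 20 groups. For Vegfa, knockout replicate 3 (7296 normalised read counts) stood apart from the other libraries of that label (3868 to 4097), with a gap of 0.933 of the range. For Angpt4, control replicate 1 (130) stood apart from the other controls (9.86 to 19.6), with 0.919. For Svep1, control replicate 3 (302) stood apart from the other controls (71.7 to 110), with 0.832.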

How the results depend on the processing

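The count of members called was 0 under every alternative with all 8 libraries, and 0 to 3 when 1 library was left out, as reported for knockout replicate 3. That library gave 3 members with edgeR and 1 with scaling to the remaining total, both chosen after seeing the data. Relative to endothelial markers the count was 0 to 2. Genes called numbered 3461, and 1751 to 3841 with a library left out (1751 without knockout replicate 4, 1887 and 2194 without control replicates 2 and 4). Relative to endothelial markers they numbered 974, and 300 to 2198 with a library left out. With a replicate block they numbered 2018, and 1622 relative to endothelial markers. The labels do not say whether the replicate numbers pair the libraries, and 4 libraries a group are too few to settle it. Same-number correlations of deviations were 0.213, -0.118, -0.233 and -0.063. Of the 4 controls 1, and of the 4 libraries labelled knockout 1, correlated best with their own number. With the block the SE was smaller for some members (Kdr 0.19 against 0.32) and larger for others (Pgf 0.27 against 0.25). The block changed no call of a member.

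Scaling to the remaining total moved the median of all genes to 0.15 and the share of higher calls from 50.04% to 77.5% (3491 genes). It called 0 members and turned the log2 difference of Angpt2 to 0.044, Flt4 to 0.072, Tek to 0.081 and Ptprb to 0.0064. Without knockout replicate 3 as well, Angpt2 was 0.044 and Rcan1 0.030. DESeq2 and edgeR turned the log2 difference of Angpt4 from 0.28 to -0.28 and -0.28, and that of Flt4 from -0.08 to 0.0047 and 0.0078. They turned that of the chondrocyte gene Col11a2 from 0.28 to -0.25 and -0.26. Col11a2 had 3923 normalised read counts in control replicate 1 and 558 to 676 in the other controls. Without knockout replicate 3, edgeR gave Nrp1 -0.10, Pecam1 -0.029 and Col11a2 -0.28. Leaving out 1 library turned the sign of small differences. Over such fits Angpt2 ran from -0.28 to 0.023, Angpt4 from -0.17 to 1.03, Flt4 from -0.22 to 0.20, Tek from -0.23 to 0.057, Nrp1 from -0.10 to 0.23, Pecam1 from -0.056 to 0.17, Reln from -0.030 to 0.298, Vegfd from -0.057 to 0.15 and the Flt1 to Kdr ratio from -0.069 to 0.19. Relative to endothelial markers Angpt1 ran from -0.019 to 0.28, Angpt2 from -0.35 to 0.024, Flt4 from -0.22 to 0.051 and Tek from -0.17 to 0.010. The cause was not tested. Loxl2 stayed higher in all 19 alternatives and was called in 10.

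Of 1174 single-gene alternatives, 1018 kept their direction and side of the threshold. The low counts of Pgf, Vegfc and Angpt2 limit their precision, and 4 libraries a group limit all.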
